A study of Mus musculus with 30 samples.

Results

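The 10 genes described here sense and signal chromosome asynapsis, and were taken from the 65534 rows of the deposited table by name, through their Ensembl identifiers. They were Hormad1, Hormad2 and Trip13 of the chromosome axis, Brca1, Bard1, Atr, Atrip and Topbp1 of the sensing and kinase complexes, and Mdc1 and H2afx of the chromatin response. Their RNA was followed over the onset of meiosis in male mice with 2, 1 or no intact copies of Prdm9, the histone methyltransferase that places meiotic recombination sites. The study measured polyadenylated RNA in 30 libraries of germ cells enriched from testes of C57BL/6J mice carrying less than 10% 129S1/SvImJ, at 8, 12 and 16 days postpartum (dpp). Each age had 5 libraries of Prdm9-/- mice, called mutant here, and 5 of mice with an intact allele, called non-mutant. The non-mutants were 3 Prdm9+/+ and 2 Prdm9+/- at 8 dpp, 1 and 4 at 12 dpp, and 2 and 3 at 16 dpp. Every mutant had at least 1 non-mutant litter mate among the libraries, in 14 litters. The labels name the genotypes and do not describe the mutant Prdm9 allele.

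HORMAD1 and HORMAD2 coat the axes of meiotic chromosomes, and the ATPase TRIP13 strips them from axes that have paired and synapsed. Where axes stay unsynapsed, BRCA1 with its partner BARD1 and the HORMAD proteins recruit the kinase ATR with its partner ATRIP and its activator TOPBP1. ATR then phosphorylates the histone variant H2AX, MDC1 spreads that mark into the chromatin loops, and transcription there is silenced, on the sex chromosomes of normal pachytene cells and on unsynapsed autosomes of cells that fail to synapse. Much of this signalling acts through protein location and phosphorylation, which RNA levels do not measure.

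The deposited values are TPM, a share of all transcripts, and are scaled for gene length and can be compared between genes. Per the annotation (GRCm38), Hormad1 lies on chromosome 3 at 95559677-95587671 (plus strand), Hormad2 on chromosome 11 at 4345814-4441105 (minus) and Trip13 on chromosome 13 at 73911347-73937784 (minus). Brca1 lies on chromosome 11 at 101488764-101551955 (minus) and Bard1 on chromosome 1 at 71027498-71103146 (minus). Chromosome 9 holds 4 of the genes: Atr at 95857597-95951781 (plus), Atrip at 109057933-109074124 (minus), Topbp1 at 103305215-103350428 (plus) and H2afx at 44334694-44336077 (plus). Mdc1 lies on chromosome 17 at 35841515-35859670 (plus). All 10 are annotated as protein coding. Atrip overlaps Trex1, a protein-coding gene on the same strand with a mean of 6.27 TPM, over 1802 bases, and Atr overlaps the antisense genes Gm16794 and 1700065D16Rik. Whether the counting used strand is not given in the sources used here, so the values of Atr may hold reads of its antisense neighbours. Trex1 lies on the strand of Atrip, so the values of Atrip may hold Trex1 reads with either kind of counting.

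Hormad1, Hormad2, Atr and Mdc1 were the 4 genes that passed the test as higher at both age steps in both genotype classes, so their promoters are shown. The sequences are RefSeq's for GRCm38.p6, 5′ to 3′ on the gene's strand, and end before the annotated start of the gene. They are chr3:95559427-95559676 (plus), chr11:4441106-4441332 (minus), chr9:95857347-95857596 (plus) and chr17:35841248-35841497 (plus). Capitals mark matches on either strand to 6 motifs: GGCGGGA (E2F6-type), CNCCTCAG (bound by STRA8, the factor that starts meiosis), AACNGCC (MYB-type), CCAAT (NF-Y), CACGTG (E-box) and TGACGTCA (cyclic AMP response element).
Hormad1: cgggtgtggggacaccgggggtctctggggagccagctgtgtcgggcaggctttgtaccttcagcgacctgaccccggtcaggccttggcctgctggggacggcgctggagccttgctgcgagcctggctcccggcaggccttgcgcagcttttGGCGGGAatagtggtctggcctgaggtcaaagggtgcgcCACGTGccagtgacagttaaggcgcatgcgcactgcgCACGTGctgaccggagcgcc
Hormad2: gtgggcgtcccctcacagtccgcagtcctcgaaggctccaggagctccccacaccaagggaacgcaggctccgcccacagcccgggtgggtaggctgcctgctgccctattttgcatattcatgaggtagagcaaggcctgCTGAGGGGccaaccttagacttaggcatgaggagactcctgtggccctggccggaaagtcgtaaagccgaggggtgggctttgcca
Atr: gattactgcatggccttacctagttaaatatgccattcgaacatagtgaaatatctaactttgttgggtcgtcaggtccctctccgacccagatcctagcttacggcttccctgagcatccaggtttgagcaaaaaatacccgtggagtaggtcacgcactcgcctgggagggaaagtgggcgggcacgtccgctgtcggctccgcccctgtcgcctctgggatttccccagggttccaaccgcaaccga
Mdc1: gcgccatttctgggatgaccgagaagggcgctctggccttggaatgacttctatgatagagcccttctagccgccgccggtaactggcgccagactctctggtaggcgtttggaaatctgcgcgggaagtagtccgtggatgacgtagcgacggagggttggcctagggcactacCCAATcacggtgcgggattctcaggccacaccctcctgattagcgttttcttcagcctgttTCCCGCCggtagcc
Hormad1 held a GGCGGGA and 2 CACGTG matches, Hormad2 a CNCCTCAG, Mdc1 a GGCGGGA and a CCAAT, and the Atr window none of the 6. A promoter entry was found for 9 of the 10 genes, without H2afx, and the search window was 300 bases, from 250 before to 50 after the start. GGCGGGA was present in 2 of the 9 (Hormad1 and Mdc1) and in 11.3% of all 32851 promoters of that length. CNCCTCAG was present in 2 of the 9 (Hormad2 and Atrip) and in 7.94% of all promoters. In Atrip that match overlaps the single AACNGCC match, a motif found in 12.1% of all promoters. CCAAT was present in 3 of the 9 (Atrip, Brca1 and Mdc1) against 37.4% of all, CACGTG in Hormad1 alone against 7.15%, and TGACGTCA in none against 1.79%. A shared feature was CpG content: the 9 promoters held 16 (Hormad2) to 38 (Topbp1) CpG dinucleotides in 300 bases, where the median of all promoters is 7. Fewer CpG than in Hormad2 were held by 67% of all promoters, and fewer than in Topbp1 by 95%, so such content is common. A match is a description of letters and not evidence of binding.

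Before the results, the labels were checked. Prdm9 RNA was detected in the mutant libraries, at 6.89 to 12.8 TPM against 19.7 to 34.4 TPM in non-mutants at 16 dpp (limma adjusted p = 0.00352). At 8 dpp Prdm9 ranges overlapped (4.77 to 8.98 against 1.82 to 6.10 TPM), so it checks nothing there. Prdm9 did not pass limma's test between the classes at 12 dpp (log2 -0.91, SE 0.26). At 12 dpp litter 13 went against its labels: its library labelled Prdm9-/- had 19.2 TPM and its library labelled Prdm9+/- 9.16 TPM, while the other 4 mutants had 6.34 to 8.16 TPM. Age steps and class differences that involve 12 dpp are given, for the genes described here, with that litter and, where a call changed, without it. Calls in the marker lists and the wider pathway were made with that litter kept and were not checked without it. Over all rows, leaving it out lowered the calls from 6497 to 5445 for 8 to 12 dpp in non-mutants. For 12 to 16 dpp in mutants they went from 2423 to 1896. Summed TPM of 9 Sertoli cell markers was 4730 to 7773 in every group, so somatic cells remained in these preparations. Summed TPM of 9 leptotene and zygotene markers was 92.1 to 294 at 8 dpp, 400.3 to 743 at 12 dpp and 828 to 1261 at 16 dpp. The 9 pachytene markers summed to 326 to 1488 TPM in non-mutants and 158 to 208 TPM in mutants at 16 dpp. In such bulk samples more cells of a type and more RNA per cell cannot be told apart.

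Between 8 and 12 dpp Hormad1, Hormad2 and Atr rose by the largest factors, Mdc1 rose less, and H2afx fell. In non-mutants 8 of the 10 genes passed the test as higher, where 20.3% of the 20021 rows tested did, and 1 passed as lower (H2afx), where 12.1% did. In mutants 4 were higher (Hormad1, Hormad2, Atr and Mdc1), against 17.5% of all rows, and 1 was lower (H2afx), against 12.2%. The median log2 change of the 10 genes was 0.46 in non-mutants and 0.29 in mutants, where the median over all rows was 0.09 and 0.06. From 12 to 16 dpp the same 6 genes were called higher in each class (Hormad1, Hormad2, Atr, Topbp1, Mdc1 and H2afx) and none lower. The background for this step in non-mutants was 8.88% of rows higher and 13% lower, and in mutants 6.21% higher and 5.89% lower. The members' median log2 change was 0.50 in non-mutants and 0.40 in mutants, beside -0.09 and -0.0035 over all rows. With median-ratio scaling the whole table split differently in non-mutants, at 2849 rows higher and 3457 lower from 8 to 12 dpp (4067 and 2430 as deposited) and 2624 higher and 1577 lower from 12 to 16 dpp (1777 and 2595 as deposited). In mutants it gave 2821 higher and 3115 lower from 8 to 12 dpp (3496 and 2452), and no member's call changed direction under it. Tests were limma's on log2(TPM + 1), adjusted over all rows tested and called under 0.05, and fold changes below are on that scale. The plot of TPM by age shows these values for every library.

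**Figure D1:**
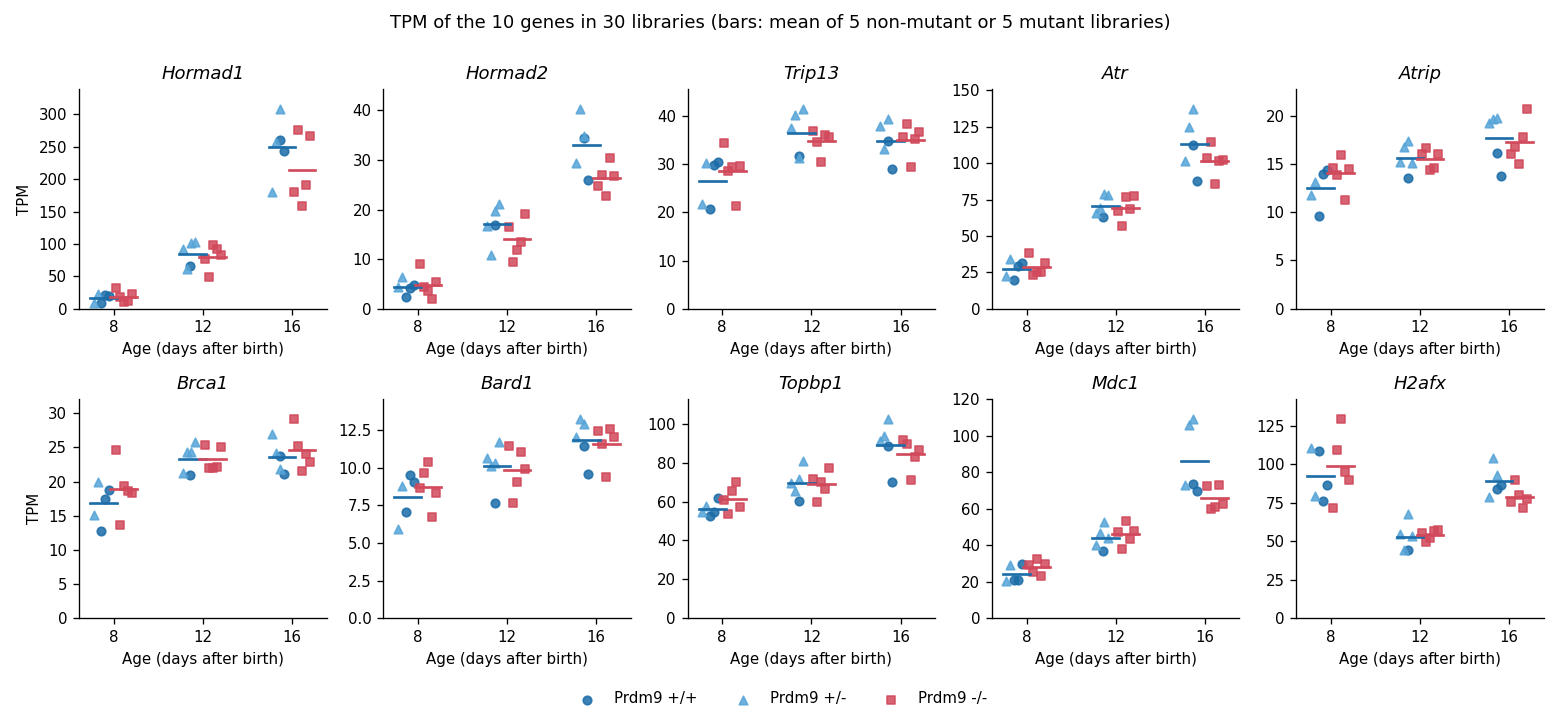
TPM of each gene (vertical axes, linear, from 0) against age in days after birth in 30 libraries, with circles for Prdm9+/+, triangles for Prdm9+/-, squares for Prdm9-/- and bars for the mean of 5 libraries. Hormad1, Hormad2, Atr and Mdc1 climb at each age, from 16.1 to 250.1 TPM for the mean of Hormad1 in non-mutants, while H2afx is lowest at 12 dpp.

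Hormad1, the axis protein that licenses checkpoint signalling on unsynapsed chromosomes, had the highest mean of the 10 transcripts at 12 and 16 dpp, although at 12 dpp its range overlapped that of Atr and both litter 9 libraries had more Atr and more Topbp1 than Hormad1. At 8 dpp it stood at 8.43, 20.8 and 20.1 TPM in Prdm9+/+, 8.06 and 23.3 TPM in Prdm9+/- and 31.5, 18.5, 10.0, 11.7 and 22.0 TPM in Prdm9-/- libraries. At 12 dpp the values were 66.4 TPM in Prdm9+/+, 91.5, 60.8, 100.7 and 103.1 TPM in Prdm9+/- and 76.4, 49.1, 99.0, 91.6 and 83.1 TPM in Prdm9-/-. At 16 dpp they were 260.4 and 244 TPM in Prdm9+/+, 180.04, 258 and 308 TPM in Prdm9+/- and 181, 277, 158, 190.5 and 266 TPM in Prdm9-/-. Every library of an age lay above every library of the age before, and within an age the classes overlapped. The rise from 8 to 12 dpp was 5.33-fold in non-mutants (log2 2.41, SE 0.28, limma adjusted p = 2.33e-07) and 4.31-fold in mutants (log2 2.11, SE 0.28, adjusted p = 1.47e-06). From 12 to 16 dpp it was 2.96-fold in non-mutants (log2 1.57, SE 0.28, limma adjusted p = 0.000145) and 2.67-fold in mutants (log2 1.42, SE 0.28, adjusted p = 0.000961). At 8 dpp the mutant from litter 3 had 31.5 TPM and its Prdm9+/+ litter mate 8.43 TPM. Summed leptotene and zygotene markers were 294 TPM in that mutant and 92.1 TPM in its mate, the highest and lowest at 8 dpp. That mutant also had the highest summed markers of undifferentiated and differentiating spermatogonia at 8 dpp (308 and 583 TPM, mate 169 and 300 TPM). The part of these markers in the Hormad1 values was not tested.

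Hormad2, which works downstream of HORMAD1 in bringing ATR to unsynapsed axes, was the least abundant at 8 dpp. It had 2.35, 4.25 and 4.80 TPM in Prdm9+/+, 4.44 and 6.44 TPM in Prdm9+/- and 8.97, 4.32, 3.48, 1.96 and 5.39 TPM in Prdm9-/- libraries at that age. At 12 dpp it had 17.0 TPM in Prdm9+/+, 16.7, 10.8, 19.7 and 21.2 TPM in Prdm9+/- and 16.5, 9.49, 11.9, 13.4 and 19.1 TPM in Prdm9-/-. At 16 dpp it had 34.4 and 26.1 TPM in Prdm9+/+, 29.3, 40.3 and 34.8 TPM in Prdm9+/- and 24.7, 27.0, 22.8, 30.3 and 26.7 TPM in Prdm9-/-. Within each class the ages did not overlap. The rise was 3.34-fold in non-mutants and 2.74-fold in mutants from 8 to 12 dpp (limma adjusted p = 2.01e-06 and 2.45e-05), then 1.90-fold and 1.85-fold from 12 to 16 dpp (adjusted p = 0.00483 and 0.0116). Hormad2 remained far below Hormad1 at each age, with non-mutant means of 33.0 ± 5.47 against 250.1 ± 46.0 TPM at 16 dpp (SD, n = 5).

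Trip13, the ATPase that removes HORMAD proteins from synapsed axes, had a nearly flat course beside its substrates. Its non-mutant means were 26.6 ± 4.93, 36.4 ± 4.74 and 34.9 ± 4.10 TPM at 8, 12 and 16 dpp (SD, n = 5), and its mutant means 28.7 ± 4.71, 34.8 ± 2.52 and 35.1 ± 3.37 TPM. The 8 to 12 dpp change passed the test in non-mutants (1.37-fold, limma adjusted p = 0.0049) and not in mutants (1.22-fold, adjusted p = 0.0759). Without the litter 3 mutant at 8 dpp the mutant change of Trip13 passed too (log2 0.35, limma adjusted p = 0.0295). The later log2 change, to 16 dpp, was -0.06 in non-mutants and 0.01 in mutants, with 95% intervals of -0.31 to 0.19 and -0.24 to 0.25.

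Among the sensing genes, Brca1 and Bard1 changed little. Brca1, the ubiquitin ligase subunit that loads ATR on unsynapsed axes, had 12.8 to 19.9 TPM in non-mutants at 8 dpp, 20.9 to 25.8 TPM at 12 dpp and 21.1 to 26.9 TPM at 16 dpp. The first step was 1.38-fold in non-mutants (limma adjusted p = 0.00352) and 1.24-fold in mutants (adjusted p = 0.0519), so the mutant value lay just outside the threshold. It passed without the litter 3 mutant (log2 0.40, limma adjusted p = 0.00784) and on leaving out 3 other single libraries (Prdm9+/+ replicate 1 or Prdm9+/- replicate 2 at 8 dpp, or Prdm9-/- replicate 1 at 16 dpp), with adjusted p from 0.0373 to 0.0481. Its obligate partner Bard1 had 5.96 to 9.55, 7.69 to 11.7 and 9.61 to 13.3 TPM in non-mutants at 8, 12 and 16 dpp. Bard1 passed no test as fitted: its 4 age-step values were 1.11- to 1.23-fold, with limma adjusted p from 0.0849 to 0.42. Its non-mutant change from 8 to 12 dpp (log2 0.30) did pass without the single Prdm9+/+ library at 12 dpp (log2 0.38, limma adjusted p = 0.0292), with Prdm9+/- libraries alone (0.50, adjusted p = 0.041) and with litter as a random effect (0.33, adjusted p = 0.0486).

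Atr, the kinase at the centre of the response, rose at every step. At 8 dpp it had 19.4, 29.5 and 31.7 TPM in Prdm9+/+, 22.6 and 34.0 TPM in Prdm9+/- and 38.5, 22.9, 25.2, 25.5 and 31.1 TPM in Prdm9-/- libraries. At 12 dpp it had 63.0 TPM in Prdm9+/+, 65.9, 69.1, 78.6 and 77.9 TPM in Prdm9+/- and 67.1, 57.1, 76.8, 68.9 and 77.2 TPM in Prdm9-/-. At 16 dpp it had 113 and 87.6 TPM in Prdm9+/+, 101.7, 125 and 137 TPM in Prdm9+/- and 103.5, 114, 86.0, 101.5 and 102.1 TPM in Prdm9-/-. The ages did not overlap, and at each age the mutant range lay within or across the non-mutant range. From 8 to 12 dpp the rise was 2.57-fold in non-mutants and 2.40-fold in mutants (log2 1.36 and 1.26, SE 0.14 each, limma adjusted p = 4.49e-08 and 1.08e-07). The following step was 1.57-fold and 1.46-fold (limma adjusted p = 0.00117 and 0.01). Non-mutant Atr ranked 69th of 20021 rows by p-value at the first step.

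The partner and the activator of ATR did not follow it in size. Atrip, which tethers ATR to single-stranded DNA, went from 12.6 ± 1.94 to 15.6 ± 1.49 and 17.7 ± 2.69 TPM in non-mutants (SD, n = 5) and from 14.0 ± 1.70 to 15.5 ± 0.96 and 17.3 ± 2.15 TPM in mutants. Only its 8 to 12 dpp change in non-mutants passed the test (1.23-fold, limma adjusted p = 0.0405). That call was lost without litter 13 (adjusted p = 0.0629), in 6 other alternatives and on leaving out 6 single libraries (Prdm9+/+ replicate 1 and Prdm9+/- replicate 1 at 8 dpp, and each Prdm9+/- replicate at 12 dpp), with adjusted p up to 0.807. Topbp1, which switches the kinase on, was abundant from the start, at 52.3 to 62.0 TPM in non-mutants at 8 dpp, 60.0 to 80.7 TPM at 12 dpp and 70.0 to 103 TPM at 16 dpp. Its non-mutant changes were 1.23-fold and 1.28-fold (limma adjusted p = 0.018 and 0.0077), and the first was lost without litter 13 (adjusted p = 0.066). That first call was also lost without Prdm9+/+ replicate 1 at 8 dpp (adjusted p = 0.0509) or without Prdm9+/- replicate 4 at 12 dpp (adjusted p = 0.0671). In mutants the Topbp1 change was 1.12-fold from 8 to 12 dpp (limma adjusted p = 0.194) and 1.22-fold from 12 to 16 dpp (adjusted p = 0.048), a call lost in 19 of 30 fits that left out 1 library. The mean of Atr therefore went from below that of Topbp1 at 8 dpp (27.4 against 56.2 TPM in non-mutants) to a level with overlapping ranges at 12 dpp (70.9 against 69.4 TPM) and 16 dpp (113 against 89.3 TPM).

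Mdc1, the adaptor that binds phosphorylated H2AX and spreads the mark along chromatin loops, rose at both steps. At 8 dpp it had 20.9, 20.8 and 29.7 TPM in Prdm9+/+, 20.3 and 29.4 TPM in Prdm9+/- and 29.0, 25.2, 32.3, 23.4 and 29.5 TPM in Prdm9-/- libraries. At 12 dpp it had 37.1 TPM in Prdm9+/+, 39.9, 46.9, 53.1 and 44.1 TPM in Prdm9+/- and 47.2, 38.2, 53.2, 43.5 and 47.9 TPM in Prdm9-/-. At 16 dpp it had 73.6 and 69.6 TPM in Prdm9+/+, 72.9, 106 and 109 TPM in Prdm9+/- and 72.3, 60.04, 61.2, 72.9 and 62.9 TPM in Prdm9-/-. The ages did not overlap within a class, and at 16 dpp 2 Prdm9+/- libraries stood well above the rest. The rise from 8 to 12 dpp was 1.81-fold in non-mutants and 1.63-fold in mutants (log2 0.85 and 0.70, SE 0.13 each, limma adjusted p = 1.77e-05 and 0.000194). The step to 16 dpp was 1.91-fold in non-mutants (log2 0.93, SE 0.13, limma adjusted p = 8.03e-06) and 1.43-fold in mutants (log2 0.51, SE 0.13, adjusted p = 0.0109).

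H2afx, which encodes the histone variant H2AX, was the one member with a dip. At 8 dpp it had 109, 76.3 and 86.2 TPM in Prdm9+/+, 110.5 and 79.1 TPM in Prdm9+/- and 71.9, 109, 129, 94.9 and 90.04 TPM in Prdm9-/- libraries. At 12 dpp it had 44.3 TPM in Prdm9+/+, 54.5, 44.5, 67.6 and 53.1 TPM in Prdm9+/- and 55.2, 49.2, 52.4, 56.6 and 57.5 TPM in Prdm9-/-. At 16 dpp it had 83.6 and 86.6 TPM in Prdm9+/+, 78.4, 104 and 92.8 TPM in Prdm9+/- and 75.6, 89.7, 80.02, 71.7 and 77.6 TPM in Prdm9-/-. In each class all 5 libraries at 12 dpp lay below all those at 8 and at 16 dpp. The fall to 12 dpp was 1.73-fold in non-mutants and 1.78-fold in mutants (log2 -0.79 and -0.83, SE 0.13 each, limma adjusted p = 2.45e-05 and 1.18e-05). The rise to 16 dpp was 1.69-fold in non-mutants and 1.45-fold in mutants (log2 0.75 and 0.53, SE 0.13 each, limma adjusted p = 7.42e-05 and 0.00549). H2afx transcripts occur in polyadenylated and non-polyadenylated forms as textbook background, and these libraries were made from polyadenylated RNA. The summed level of 12 markers of S phase and division had overlapping ranges at the 3 ages (1037 to 1298 TPM at 8 dpp, 871 to 1135 TPM at 12 dpp and 1007 to 1227 TPM at 16 dpp). Singly, 3 of the 12 passed as lower and 2 as higher from 8 to 12 dpp in non-mutants (12.1% and 20.3% of all rows). The count of 2 is near the share over all rows. In mutants 5 passed as lower and 0 as higher (12.2% and 17.5% of all rows). From 12 to 16 dpp 3 passed as higher and 0 as lower in each class. The shares over all rows were 8.88% higher and 13% lower in non-mutants, and 6.21% and 5.89% in mutants. The part of these markers in the H2afx values was not tested. The plot of age steps sets the members side by side.

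**Figure D2:**
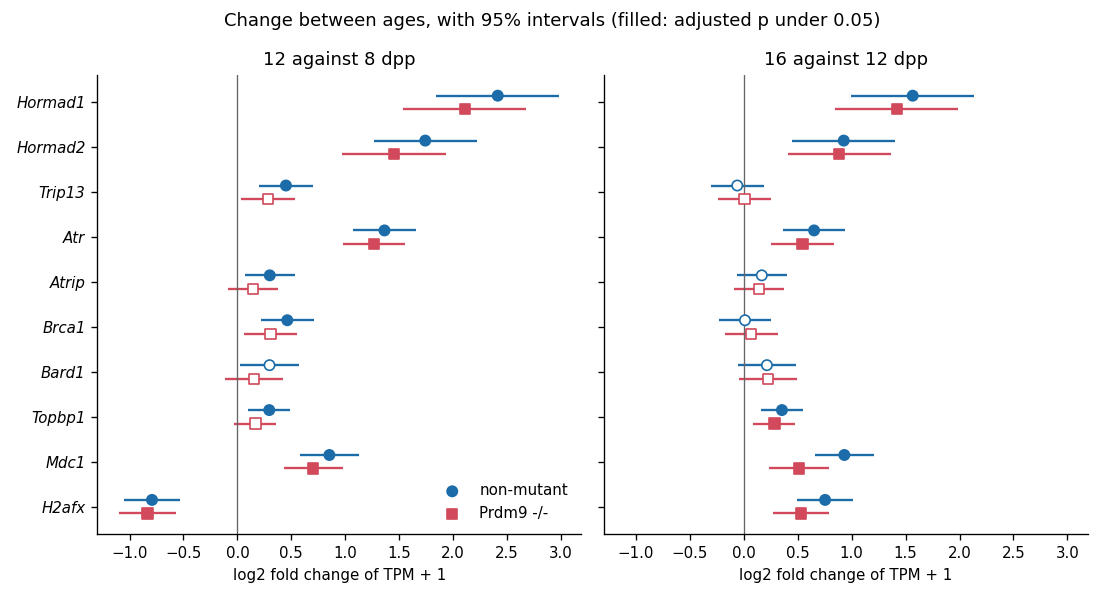
Log2 fold change of TPM + 1 (horizontal axis) of each gene from 8 to 12 dpp (left) and from 12 to 16 dpp (right), in non-mutants (circles) and Prdm9-/- (squares), with 95% intervals of single values; filled symbols passed limma's test at an adjusted p under 0.05. Hormad1, Hormad2 and Atr have the largest rises from 8 to 12 dpp, and H2afx goes from -0.79 to 0.75 in non-mutants.

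The order of levels changed with age. At 8 dpp in non-mutants H2afx led with a mean of 92.1 TPM, followed by Topbp1 (56.2 TPM), and each was separated from the next gene's range. Below them Atr, Trip13 and Mdc1 (27.4, 26.6 and 24.2 TPM) had ranges that overlapped their neighbours, as did Brca1, Hormad1 and Atrip (16.8, 16.1 and 12.6 TPM), and Bard1 and Hormad2 came last (8.08 and 4.46 TPM). By 16 dpp the order was the same in both classes: Hormad1 led alone at 250.1 TPM in non-mutants and 214 TPM in mutants, separated from Atr, and Atr, Topbp1, H2afx and Mdc1 followed with each neighbour's range overlapping. Trip13, Hormad2 and Brca1 came next with overlapping ranges, and Atrip and Bard1 closed the order, each separated from its neighbour.

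Spermatocytes without Prdm9 are known to stall with incompletely synapsed chromosomes. At 16 dpp none of the 10 genes passed the test between mutants and non-mutants, where 3.26% of rows did (653 of 20021, of which 102 were higher and 551 lower in mutants). Limma's unadjusted p was under 0.05 for 1 member, Mdc1, and for 2473 rows. The members' log2 differences were negative for 8 of 10, with a median of -0.11 beside 0.07 over all rows. The 9 leptotene and zygotene markers had a similar median of -0.12, with 4 of 9 positive and 0 called by limma. Their part in the members' values was not tested. Markers of cells outside the germ line had positive medians at this age, with no single marker called by limma. For 9 Sertoli and 5 peritubular myoid markers the medians were 0.10 and 0.11, near the 0.07 over all rows. For 4 endothelial markers the median was 0.22, and larger medians were seen for 3 other lists. The median was 0.95 for 4 erythroid markers (2 with an unadjusted p under 0.05), 0.69 for 5 Leydig cell markers (2) and 0.52 for 6 macrophage markers (3). Their summed TPM in mutants and non-mutants was 126 to 465 and 59.5 to 308 for erythroid cells, 155 to 468 and 93.5 to 353 for Leydig cells, and 72.9 to 122 and 42.2 to 99.2 for macrophages. All of these ranges overlapped, and their part in the members' values was not tested. The estimates with 95% intervals were -0.23 (-0.81 to 0.34) for Hormad1, -0.31 (-0.79 to 0.17) for Hormad2, -0.14 (-0.43 to 0.15) for Atr and -0.17 (-0.43 to 0.09) for H2afx. For Trip13, Brca1, Bard1, Atrip and Topbp1 the estimates were 0.01, 0.06, -0.03, -0.03 and -0.08, and their intervals lay between -0.30 (Bard1) and 0.30 (Brca1). These intervals bound each difference and do not show that the classes were alike. The plot of genotype differences gives all 3 ages.

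**Figure D3:**
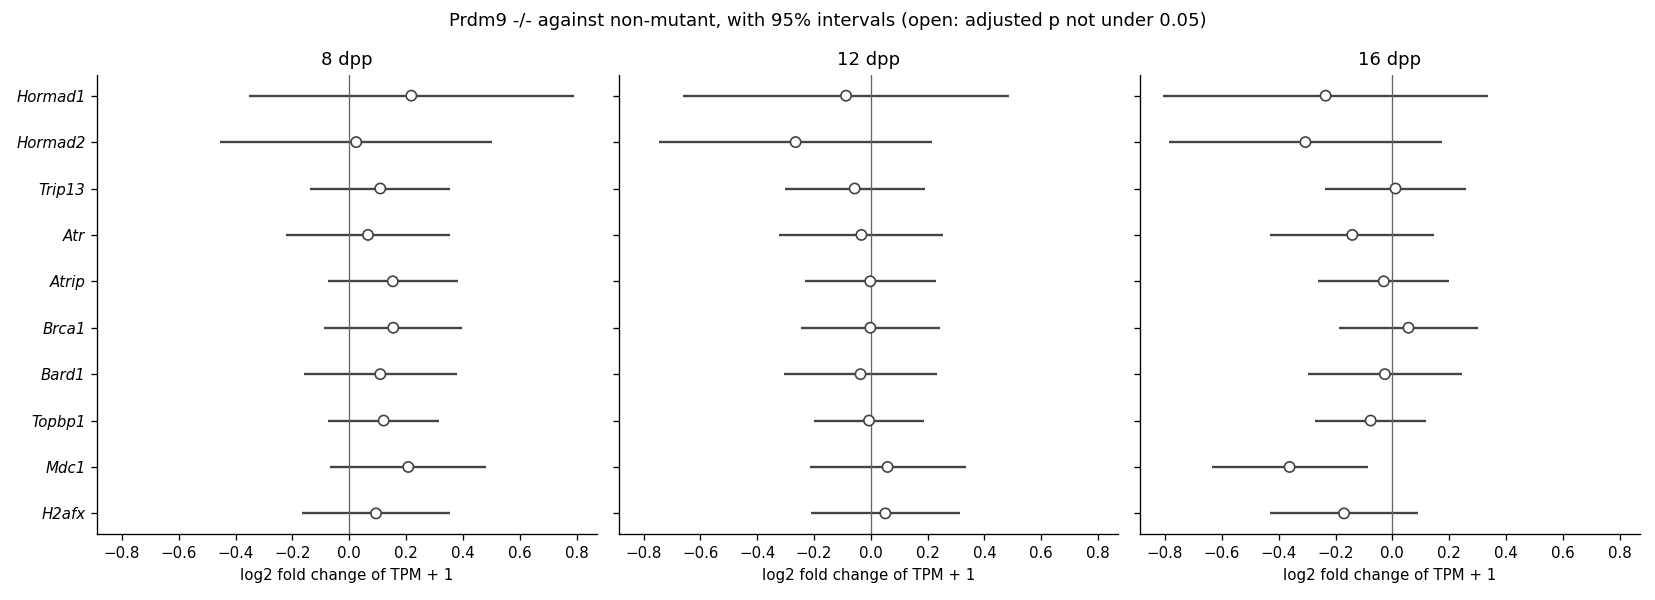
Log2 fold change of TPM + 1 (horizontal axes) in Prdm9-/- against non-mutant libraries for each gene at 8, 12 and 16 dpp, with 95% intervals of single values; open symbols did not pass limma's test at an adjusted p under 0.05. Intervals cross 0 for every gene and age except Mdc1 at 16 dpp (-0.64 to -0.09).

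Mdc1 had the largest difference at 16 dpp. Its mean was 65.9 ± 6.22 TPM in mutants and 86.3 ± 19.7 TPM in non-mutants (SD, n = 5). The log2 difference was -0.36 (SE 0.13, 95% interval -0.64 to -0.09, limma adjusted p = 0.194), and Mdc1 ranked 1205th of the rows by p-value. The mutant had less Mdc1 than its litter mate in 5 of 5 litters: 72.3 against 72.9 TPM, 60.04 against 73.6 TPM, 61.2 against 69.6 TPM, 72.9 against 106 TPM and 62.9 against 109 TPM. The call depended on scaling and on the reference genotype. With median-ratio scaling the log2 difference was -0.45 (limma adjusted p = 0.0384), and against Prdm9+/- libraries alone it was -0.52 (adjusted p = 0.0423). Against Prdm9+/+ libraries alone it was -0.12 (limma adjusted p = 0.773). With litter as a block it was -0.36 (limma adjusted p = 0.128). The 2 libraries with the highest Mdc1 also had the highest summed pachytene markers, 1202 and 1488 TPM against 326 to 560 TPM in the other 3 non-mutants and 158 to 208 TPM in mutants. Of the 8 pachytene markers tested, 7 passed as lower in mutants at 16 dpp, where 551 of 20021 rows did. In those mutants 3 of the 9 markers had means under 1 TPM (Pgk2, Spag6l and Cetn1). The part of these markers in the Mdc1 values was not tested.

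Hormad2 also lay below its litter mate in 5 of 5 mutants at 16 dpp, at 24.7 against 29.3, 27.0 against 34.4, 22.8 against 26.1, 30.3 against 40.3 and 26.7 against 34.8 TPM. Other members were mixed there: H2afx was lower in 4 of 5 litters, Hormad1, Atr and Bard1 in 3, Trip13, Atrip and Topbp1 in 2 and Brca1 in 1. The share of all rows lower in 5 of 5 litters was not counted. At 12 dpp Hormad2 was lower in 5 of 5 litters again, with differences from 16.5 against 16.7 TPM to 13.4 against 19.7 TPM. One of these is litter 13 (19.1 TPM in the library labelled Prdm9-/- and 21.2 TPM in that labelled Prdm9+/-), whose Prdm9 levels go against its labels, so its direction is uncertain. The log2 differences of -0.31 and -0.26 did not pass limma's test (adjusted p = 0.653 and 1), nor with litter as a block (adjusted p = 0.464 and 1). At 8 dpp Hormad2 was lower in 3 of 4 litters, with litter 8 taken by the means of its 2 mutants and 2 Prdm9+/+ libraries. In litter 3 the mutant had 8.97 TPM and its mate 2.35 TPM. The plot of litter mates shows these pairs beside Mdc1 and the pachytene markers.

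**Figure D4:**
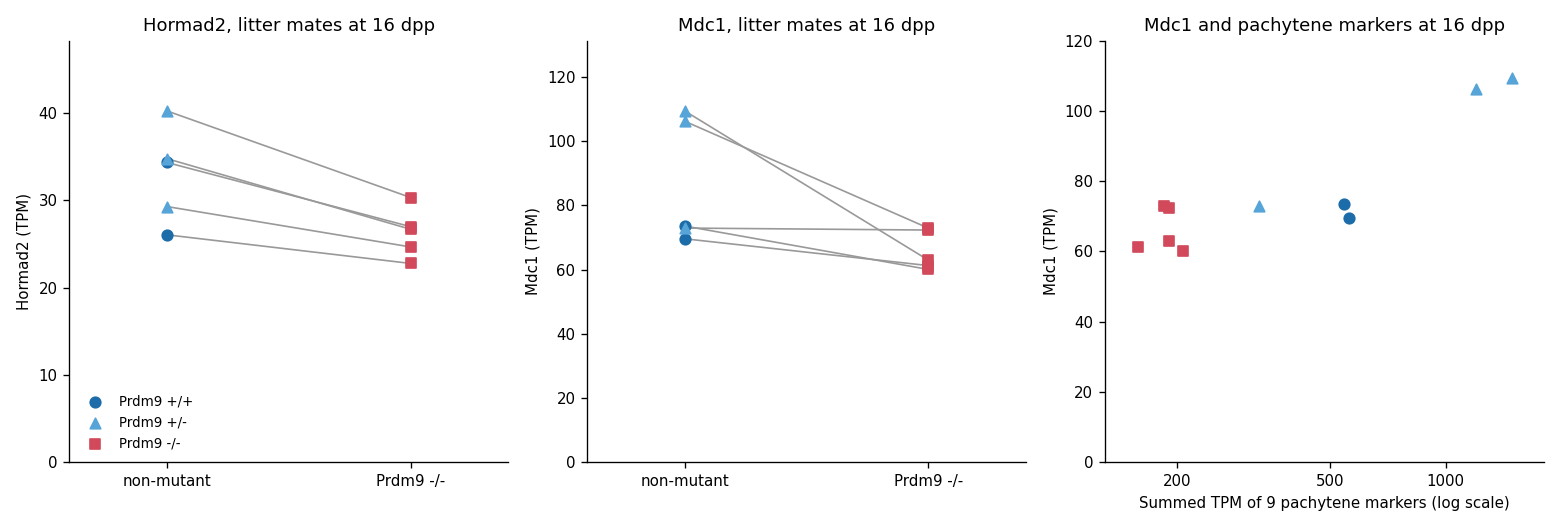
Hormad2 (left) and Mdc1 (middle) in TPM at 16 dpp, with grey lines joining the 5 pairs of litter mates, and Mdc1 against the summed TPM of 9 pachytene markers on a log axis (right); circles are Prdm9+/+, triangles Prdm9+/- and squares Prdm9-/-. Each mutant lies below its litter mate for both genes, and the 2 libraries with 106 and 109 TPM of Mdc1 are Prdm9+/-.

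At 12 dpp no member passed limma's test between the classes, where 0% of rows did. The unadjusted p was under 0.05 for none of the 10 and for 225 rows. Prdm9, the gene that defines the classes, did not pass there either (log2 -0.91, SE 0.26). The lack of calls at 12 dpp therefore does not show that the members were alike. The members' estimates ran from -0.26 for Hormad2 (95% interval -0.74 to 0.21) to 0.06 for Mdc1 (-0.22 to 0.33), with a median of -0.02. At 8 dpp the result was the same, 0 of 10 with 0% of rows called and 417 rows at an unadjusted p under 0.05, of which none was a member. There the estimate was positive for all 10 genes, from 0.02 for Hormad2 to 0.22 for Hormad1 (95% interval -0.35 to 0.79), and the median was 0.12 beside 0.02 over all rows. Without the litter 3 mutant the estimate was 0.01 for Hormad1, -0.20 for Hormad2 and -0.04 for Atr. That library had the highest summed leptotene and zygotene markers at 8 dpp (294 TPM), and their part was not tested. Litters at 8 dpp were compared by class means of log2(TPM + 1), since litter 8 held 2 mutants and 2 Prdm9+/+ libraries. Mdc1 was higher in mutants in 4 of 4 litters, by log2 0.01 to 0.46, and Atrip, Bard1 and Topbp1 in 3 of 4. In litter 8 the Mdc1 values overlapped, at 25.2 and 32.3 TPM in mutants against 20.8 and 29.7 TPM in Prdm9+/+. The share of all rows higher in 4 of 4 litters was not counted. Hormad1, Atr, Brca1 and H2afx were higher in 2 and lower in 2, and Hormad2 and Trip13 were lower in 3 of 4. Summed S phase and division markers ranged from 1045 to 1298 TPM in mutants and 1037 to 1147 TPM in non-mutants at that age, and their part was not tested.

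Whether the classes moved differently between ages was tested directly. For the 12 to 16 dpp step 0 of the 10 genes differed by limma, where 1.35% of rows did, and Mdc1 alone had an unadjusted p under 0.05. Mdc1 was closest, with a step smaller by log2 0.42 in mutants (-0.42, SE 0.19, limma adjusted p = 0.6), followed by H2afx (-0.22, SE 0.18, adjusted p = 0.915), and Hormad1 differed by -0.15 (95% interval -0.96 to 0.66). For the 8 to 12 dpp step 0 of the 10 differed by limma, where 0% of rows did and 367 rows, none a member, had an unadjusted p under 0.05. All 10 estimates of that difference were negative, from -0.31 (Hormad1) to -0.04 (H2afx), and they share the 8 dpp libraries in which all 10 mutant estimates were positive. So the 4 genes called at that step in non-mutants alone (Trip13, Atrip, Brca1 and Topbp1) were not shown to differ between the classes. Prdm9 was not called for that difference of steps either (log2 -1.46, SE 0.37). The test therefore does not show that the members' steps were alike.

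The non-mutant genotypes were also compared, over all ages. None of the 10 genes passed limma's test between Prdm9+/- and Prdm9+/+, where 0% of 18668 rows did and 1972 had an unadjusted p under 0.05, Topbp1 among them (log2 0.17, SE 0.08). All 10 estimates were positive, with a median log2 difference of 0.15 beside 0.09 over all rows, and the largest were 0.24 for Mdc1 (95% interval -0.02 to 0.51) and 0.23 for Hormad2 (-0.13 to 0.60). At 16 dpp Atrip had 16.2 and 13.8 TPM in the 2 Prdm9+/+ libraries and 19.3, 19.7 and 19.8 TPM in the 3 Prdm9+/- libraries, which did not overlap. Bard1 (9.61 and 11.5 against 12.0 to 13.3 TPM) and Topbp1 (70.0 and 88.7 against 91.3 to 103 TPM) were separated in the same direction. The remaining members overlapped there, and these 2 genotypes were not tested at 16 dpp alone. Genotype and age were unevenly spread over these 15 libraries, with a single Prdm9+/+ library at 12 dpp.

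The wider pathway was read from a list of 46 genes, all tested, with litter 13 kept. Calls in this list were not checked without that litter. From 8 to 12 dpp 25 were higher and 2 lower in non-mutants, where 20.3% and 12.1% of all rows were, and 22 higher and 2 lower in mutants, against 17.5% and 12.2%. From 12 to 16 dpp 7 were higher and 3 lower in non-mutants, against 8.88% and 13% of all rows, and 4 higher and 1 lower in mutants, against 6.21% and 5.89%. The count of 4 in mutants is near the share over all rows. The median log2 change of the 46 was 0.36 and 0.22 at the first step in non-mutants and mutants, where the medians over all rows were 0.09 and 0.06. At the second step it was 0.02 and 0.08, beside -0.09 and -0.0035 over all rows. By limma none passed between the genotype classes at 8, 12 or 16 dpp (2, 0 and 2 had an unadjusted p under 0.05), nor for the difference of the 8 to 12 dpp or the 12 to 16 dpp steps (1 each).

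Of 9 axis components and HORMAD partners, 5 were higher from 8 to 12 dpp in each class (20.3% and 17.5% of all rows in non-mutants and mutants), and 1 was lower, about the share over all rows (12.1% and 12.2%). Sycp2 and Sycp3, the axial element proteins that sit with the HORMADs, and of which Sycp3 is also among the leptotene and zygotene markers, rose by log2 2.36 and 1.97 in non-mutants and 1.95 and 1.92 in mutants (limma adjusted p at most 4.6e-07). Ccdc36, which encodes the HORMAD1 partner IHO1, rose by 1.64 and 1.59, and Mei4, needed for meiotic double-strand breaks, by 0.65 and 0.81. The gene called lower was Mad2l1bp in non-mutants (-0.47), which encodes the adaptor p31comet that works with TRIP13, and Mad2l1 in mutants (-0.19). Sycp2 and Sycp3 rose again from 12 to 16 dpp, by 1.15 and 1.12 in non-mutants and 1.09 and 1.0 in mutants.

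Of 14 genes of ATR activation and its effectors, 8 were higher from 8 to 12 dpp in non-mutants (20.3% of all rows) and 6 in mutants (17.5%), and none lower. The 4 with the smallest adjusted p were the same in both: Rad9b, a clamp subunit paralogue (log2 0.63 in non-mutants, 0.65 in mutants), Rad17, the clamp loader (0.52 and 0.38), Clspn, the adaptor claspin (0.53 and 0.48), and Hus1b, another clamp paralogue (0.86 and 0.97). At the later step Rad1 (0.53), Rad9b (0.38) and Hus1b (0.66) rose in non-mutants (8.88% of all rows) and Hus1b (0.67) in mutants (6.21%). The 1 of 14 in mutants is near the share over all rows. Of 9 genes of BRCA1 complexes, Brca2 (1.06 and 0.91), Palb2 (0.70 and 0.41), Brip1 (0.50 and 0.44) and Rbbp8 (0.40 and 0.36), all repair partners of BRCA1, rose from 8 to 12 dpp in both classes. Uimc1, which encodes the ubiquitin reader RAP80, fell by 0.27 in non-mutants and by 0.39 in mutants on the log2 scale. At that step 20.3% of all rows were higher and 12.1% lower in non-mutants, and 17.5% and 12.2% in mutants. The 1 of 9 called lower is near that share.

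Of 9 genes linked to the spread of the H2AX mark and to the sex body, 5 were higher from 8 to 12 dpp in non-mutants (20.3% of all rows) and 4 in mutants (17.5%). The median log2 change of the 9 was 0.29 in non-mutants and, in mutants, 0.08, close to the 0.06 over all rows. Scml2, a germline Polycomb protein (log2 0.90 and 0.82), and Setdb1, a histone H3 lysine 9 methyltransferase (0.44 and 0.40), led in both. Of 5 genes of the sister ATM branch, Atm (0.66 and 0.42), Mre11a (0.53 and 0.31) and Rad50 (0.54 and 0.34) rose from 8 to 12 dpp in both classes (20.3% and 17.5% of all rows). None of the 5 was called from 12 to 16 dpp. The pathway genes named here are those with the smallest adjusted p in their group. All 9 leptotene and zygotene markers rose from 8 to 12 dpp in both classes (median log2 2.16 and 2.06), and their part in the pathway changes was not tested.

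The genes whose pattern over the 30 libraries was most like each member's were found among 13287 named rows, by Pearson correlation of log2(TPM + 1). These are descriptions over libraries that share ages and litters. For Hormad1 they were Sycp1, the transverse filament of the synaptonemal complex (r = 0.994), Iqcb1 (0.993) and Strbp (0.991). For Hormad2 they were Tex101, a germ cell surface protein (0.983), Sycp3 (0.978) and the meiotic helicase Hfm1 (0.977), and for Atr they were Hfm1 (0.996), Sycp2 (0.994) and Sycp1 (0.991). Hfm1 went from 3.25 to 20.5 and 45.2 TPM in non-mutants and from 3.36 to 18.9 and 38.8 TPM in mutants. For Mdc1 they included Ccdc155, the meiotic nuclear envelope protein KASH5 (0.974) and the centriolar gene Ccp110 (0.972). For H2afx they were the cell cycle genes Cdkn2c (0.914) and Cdk1 (0.91) and the polyamine enzyme Odc1 (0.856). Cdk1 shared the dip, with non-mutant means of 135, 67.5 and 107 TPM at 8, 12 and 16 dpp. For the flatter members the likest genes were the DNA polymerase Pole for Brca1 (0.944), Kntc1 for Topbp1 (0.96), Nelfb for Trip13 (0.926), Ckap2l for Bard1 (0.917) and Poc5 for Atrip (0.909).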

How the data were processed

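The deposited table holds TPM per gene, estimated by the authors in 30 libraries of polyadenylated RNA. The tools listed, per the submitters' processing notes, are RSEM 1.2.8 and Bowtie 1.0.0, with GRCm38 (mm10) as genome build; their order and roles are not given in the sources used here. Per the file headers each library has a litter number. TPM keeps no read depth, so no counting error can be given, and p-values measure the spread between libraries. Rows over 1 TPM in at least 5 libraries were fitted as log2(TPM + 1) with limma 3.58.1 (R 4.3.3) in 1 model of 6 groups (age by mutant or non-mutant, 24 residual degrees of freedom), with Benjamini-Hochberg adjustment over all rows and calls under 0.05. Intervals are 95%. All 10 genes are named in every comparison, and of the wider pathway up to 4 called genes per group and direction, by smallest adjusted p; the 3 likest genes needed a mean of at least 1 TPM and a symbol other than a clone or predicted gene. Some genes that this rule names are not reported here. The members and lists were chosen with earlier results of these data known. Litter mates come from the header: over all rows tested, deviations from group means correlated with a median of 0.22 in 17 mate pairs (13 over 0.1) and -0.08 in 58 pairs from other litters. Promoters and gene starts are from RefSeq (GRCm38.p6) and GENCODE.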

Additional observations from a re-analysis of the deposited data

How the results depend on the processing

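The alternatives were other pseudocounts, filters and scalings, 1 non-mutant genotype alone, litter terms, robust and weighted fits, and leaving out litter 13 or each library. Of the 26 called changes between ages, 0 reversed in any of them and 10 lost their call in at least 1. Of 74 values not called, 38 changed sign in at least 1 alternative and 5 gained a call (Mdc1 at 16 dpp between classes, Bard1 in non-mutants and Trip13, Brca1 and Topbp1 in mutants from 8 to 12 dpp). Between mutants and non-mutants at 16 dpp, 1 member (Mdc1) was called with median-ratio scaling and 1 (Mdc1) against Prdm9+/- libraries alone. With Prdm9+/+ libraries alone, of which 12 dpp has 1, members called higher in non-mutants fell from 8 to 3 for 8 to 12 dpp, with H2afx still called lower, and from 6 to 2 for 12 to 16 dpp. Library weights raised the mutant 8 to 12 dpp count to 7. With 1 library left out the counts of members called higher were 6 to 9 and 6 (8 to 12 and 12 to 16 dpp, non-mutants) and 4 to 6 and 5 to 6 (mutants), and 0 throughout between classes. The cause of these shifts was not tested. With litter mates as a block 1037 rows were called at 16 dpp in place of 653, and still 0 members; Mdc1 had an adjusted p of 0.128 by limma, and the block, which applies within an age, changed no member's call between classes. Called rows over all alternatives numbered 169 to 1181 (653) for the 16 dpp difference and 62 to 505 (270) for the difference of the 12 to 16 dpp steps. For the age steps they numbered 1300 to 6806 (6497) and 366 to 5363 (4372) in non-mutants, and 1634 to 4188 (2423) for 12 to 16 dpp in mutants. Leaving out Prdm9+/- replicate 2 or 3 at 16 dpp gave 382 or 366 rows for the 16 dpp difference. Prdm9+/- against Prdm9+/+ was not fitted with litter as a random effect, since only 1 litter holds 2 non-mutants, and both are Prdm9+/+. The precision of low genes is limited by an unknown depth.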
